A study of Mus musculus with 8 samples.

Results

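The respiratory chain genes described here were 107 of the 19787 genes measured in nuclei of the mouse low thoracic spinal cord. They were taken by symbol, as the mt-Nd, mt-Co, mt-Cytb and mt-Atp genes of the mitochondrial genome and the nuclear genes whose symbols begin with Nduf (a, b, c, s or v), Sdha to Sdhd, Uqcr, Cox4 to Cox8 or Atp5. The rule gave 13 genes encoded in mitochondrial DNA (mt-encoded) and 94 encoded in the nucleus, and used no measured value. Of the mt-encoded genes 7 belong to complex I, 1 to complex III, 3 to complex IV and 2 to complex V. The nuclear genes hold 30 accessory subunits, 7 core subunits and 8 assembly factors of complex I, 4 subunits of complex II, 8 of complex III, 16 of complex IV and 18 of complex V. They also hold Ndufa4 and its relative Ndufa4l2, counted with complex IV, and Cox7a2l, which joins complexes III and IV.

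The study profiled nuclei by 10x v3 single-nucleus RNA sequencing in 8 libraries, and asked which neurons take part in natural repair after spinal cord injury. All mice were wild type C57BL/6, and the sources used here do not give their ages, the time after injury or the number of animals behind each library. The groups were hemisection (2 libraries), regenerating traced neurons (1 library), traced uninjured neurons (2 libraries), uninjured control (1 library) and untraced uninjured nuclei (2 libraries). Traced neurons carry GFP, a fluorescent protein, and the projection-specific libraries passed through a cell sorter. Hemisection and uninjured control were made in the same experiment, traced and untraced libraries in another, and the regenerating library alone in the third. Traced and untraced libraries with the same number are named in the titles as fractions of 1 uninjured replicate. The labels do not say that replicates came from separate animals, so that p-values measure the spread between these libraries, which may be technical.

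Complexes I to IV pass electrons from nutrients to oxygen, complexes I, III and IV pump protons across the inner mitochondrial membrane, and complex V, the ATP synthase, uses the gradient to make ATP. Mitochondrial DNA encodes a few hydrophobic core subunits of complexes I, III, IV and V, which are transcribed inside the organelle, while all of complex II and every other subunit come from nuclear genes. Neurons depend heavily on this pathway. Mature mt-encoded transcripts lie outside the nucleus, so that in a preparation of nuclei they come with what is carried along from the cytoplasm.

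Some of the mt-encoded genes share bases, which limits how UMIs (unique molecular identifiers, each counting 1 captured RNA molecule) can be given to 1 gene. The stretch shared by mt-Atp8 and mt-Atp6, the proton channel subunits of complex V, is shown because both genes recur below. It lies on the plus strand at chrM:7927-7969 of GRCm38, is 43 bases long and makes up 21.1% of mt-Atp8, and the capitals mark the start codon of mt-Atp6 and the stop codon of mt-Atp8.
mt-Atp8 and mt-Atp6: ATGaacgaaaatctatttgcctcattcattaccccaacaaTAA
Likewise mt-Nd4l and mt-Nd4 share 7 bases, and mt-Nd5 and mt-Nd6 share 14 bases on opposite strands, so values of these genes are uncertain where the counting could split them. Atp5o and Atp5o.1 are 2 annotated genes of 1 name at 1 locus on chromosome 16, both counted with complex V by symbol. The genes lie at 91684398-91926982 (242585 bases) and 91925214-91931687 (6474 bases), so most of the longer lies outside the shorter. Members are listed by start position along each chromosome, by which Atp5o would be the longer gene and Atp5o.1 the shorter. The sources used here do not state this, nor how reads in the shared stretch were counted.

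Promoters of the nuclear members were searched on both strands for 3 motifs of factors known to act at such genes. The window ran from 250 bases before to 50 after the RefSeq start (GRCm38.p6), and 77 of the 94 nuclear members had one. The NRF1-type core CGCATGCG stood in 11 members, or 14.3%, against 2.07% of all 27025 genes with a window. The YY1-type core AAGATGGC stood in 11 members as well, or 14.3%, against 3.19% of all genes. The ETS-type core CCGGAAGT stood in 5 members, or 6.49%, against 4.31% of all genes. Of the members with a window, at least 1 motif was found in 11 of the 27 that fell in hemisection neurons relative to the uninjured control, and in 14 of the 50 others. A match is a run of letters and not a tested site. The lines below give 1 promoter stretch for each motif, 5′ to 3′ on the minus strand of each chromosome, with the motifs in capitals. Atp5k, subunit e of complex V, Uqcr11, a small subunit of complex III, and Ndufb8, an accessory subunit of complex I, were all among the members that were lower. The stretch for each motif was taken from the lower members that hold it, by size of fall. The stretches lie at chr5:108434370-108434519 (Atp5k), chr10:80406792-80406941 (Uqcr11, with an ETS-type and an NRF1-type core) and chr19:44555393-44555422 (Ndufb8).
Atp5k: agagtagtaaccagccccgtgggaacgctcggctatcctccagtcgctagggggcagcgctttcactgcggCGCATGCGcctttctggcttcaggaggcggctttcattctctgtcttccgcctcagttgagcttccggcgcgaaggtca
Uqcr11: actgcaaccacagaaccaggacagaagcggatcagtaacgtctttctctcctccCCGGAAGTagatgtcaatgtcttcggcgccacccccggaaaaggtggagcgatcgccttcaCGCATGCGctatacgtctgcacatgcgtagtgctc
Ndufb8: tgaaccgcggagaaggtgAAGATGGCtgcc

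The deposited annotation called 4076 of 12447 nuclei neurons, with 1000 and 108 in the hemisection libraries, 238 in the regenerating library, 80 and 25 in the traced libraries, 2148 in the uninjured control and 354 and 123 in the untraced libraries. The summed neuronal UMIs ran from 135012 in the regenerating library to 20739862 in the uninjured control, and the median UMIs per neuron was 488 in the regenerating library against 5767 to 16489.5 in the others. Neuronal markers summed to between 2831 and 3698 CPM (counts scaled to a common total of UMIs) in these sums, and 10 oligodendrocyte markers to 798 CPM in the uninjured control against 78.0 to 267 CPM elsewhere. The uninjured control stood apart in a further way: all 2148 of its neurons carry a barcode sequence in their names, and its 4489 other nuclei carry none. Only 4 barcodes were shared by 2 libraries.

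The uninjured control library held the highest level of every mt-encoded member in neurons. The 13 genes together made up 590 and 680 CPM in the hemisection libraries, 667 CPM in the regenerating library, 1374 and 1706 CPM in the traced libraries, 4639 CPM in the uninjured control, and 936 and 661 CPM in the untraced libraries. The uninjured control stood far above the other uninjured libraries as well as above hemisection, and the 2 traced libraries lay between it and the rest. As a share of UMIs, the mt-encoded members took 0.0590% and 0.0680% in hemisection neurons against 0.464% in uninjured control neurons. The median neuron had an mt-encoded share of 0.0249% and 0.0452% in the hemisection libraries, 0.305% in the uninjured control, and 0.0356% and 0.0293% in the untraced libraries. The 94 nuclear members summed to 2466 and 2252 CPM in the hemisection libraries, 1785 CPM in the regenerating library, 3277 and 3089 CPM in the traced libraries, 4894 CPM in the uninjured control, and 3362 and 2056 CPM in the untraced libraries. The uninjured control was again highest, for 68 of the 93 nuclear members detected in neurons and for 13 of 13 mt-encoded members, against 22.1% of all genes detected in neurons. In sums of this kind fewer mitochondria or less carry-over per nucleus, and fewer transcripts per mitochondrion, cannot be told apart.

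**Figure D1:**
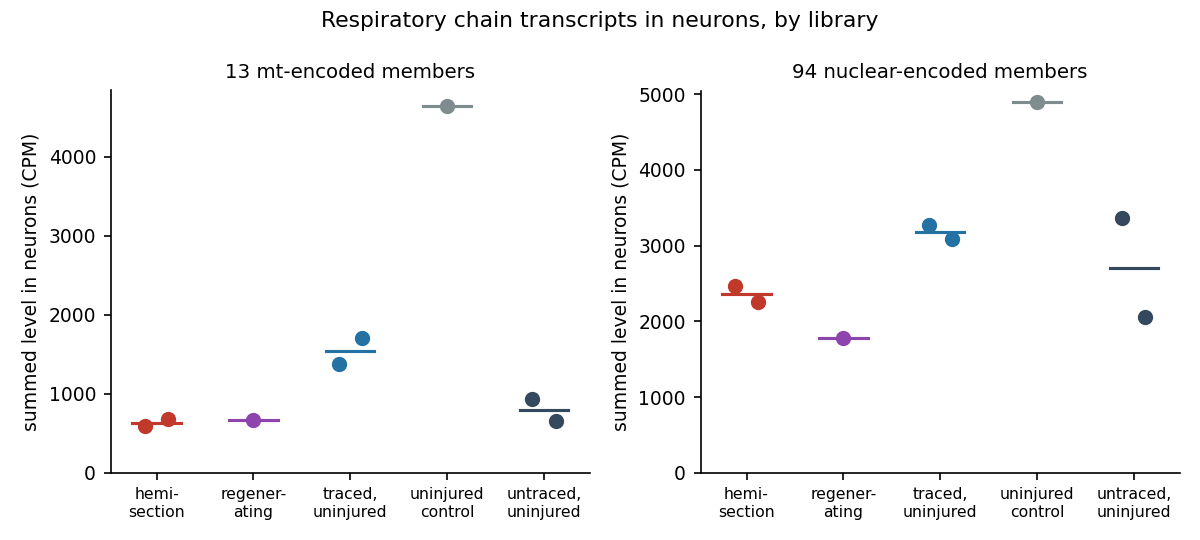
Summed level of the mt-encoded (left) and nuclear-encoded (right) respiratory chain genes in neurons, in CPM; each point is 1 library and each bar the mean of its group. The uninjured control stands at 4639 CPM for the mt-encoded genes, above all other libraries, and at 4894 CPM for the nuclear genes.

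Levels of the mt-encoded genes in neurons were divided by gene length. UMIs count molecules, so that this lowers long genes, and undivided mt-Co1 had the highest median, at 160 CPM. The median over the 8 libraries was 190 CPM per kb for mt-Co3, 149 for mt-Co2, 143 for mt-Atp6, 118 for mt-Cytb and 104 for mt-Co1. The complex I genes followed, with medians between 58.4 CPM per kb for mt-Nd1 and 2.36 for mt-Nd6, the light-strand gene. The complex V gene mt-Atp8 lay among them, at 13.3 CPM per kb. The 5 genes named first overlapped in their range over libraries, and the rank of mt-Atp6 moved between 1 and 4.

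Hemisection was compared with the uninjured control, the comparison made within 1 experiment. All 13 mt-encoded members were lower after hemisection (edgeR quasi-likelihood test on neuronal UMI sums, Benjamini-Hochberg adjusted p at most 0.00960), with log2 fold changes from -4.19 to -2.01 and a median of -2.86. Over all 11601 genes tested 4.61% were called lower, and the median log2 fold change was 0.03. The steepest fall was that of mt-Nd3, a small core subunit of complex I, with 6.63 and 6.69 CPM in hemisection neurons and 129 CPM in uninjured control neurons (log2 fold change -4.19, SE 0.30, adjusted p = 9.95e-07, edgeR). For mt-Atp6 the values were 64.2 and 66.9 CPM after hemisection and 812 CPM in the uninjured control (log2 fold change -3.53, adjusted p = 5.72e-07, edgeR). Both hemisection libraries lay close together and far below the control for these genes. The fall was smallest for mt-Co1, the catalytic subunit of cytochrome c oxidase, with 118 and 168 CPM after hemisection and 610 CPM in the uninjured control (log2 fold change -2.01). For mt-Cytb, cytochrome b of complex III, the level was 77.0 and 80.3 CPM after hemisection and 387 CPM in the uninjured control (log2 fold change -2.20). The uninjured control is 1 library, and its spread was taken from the replicated groups.

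Of the nuclear members tested, 32 of 88 fell in hemisection neurons relative to the uninjured control and 0 rose, with a median log2 fold change of -1.07. The count was 4 without hemisection replicate 1, 12 without hemisection replicate 2 and 2 with DESeq2. The calls took in 12 of 30 accessory subunits of complex I and 6 of 11 tested subunits of complex IV, together with Ndufa4. They also took in 10 of the 18 members counted with complex V by symbol, Atp5o among them. In complex III 2 of 8 were called, Uqcr11 (log2 fold change -1.73) and the ubiquinone-binding subunit Uqcrq (-1.22). Among the 7 nuclear core subunits of complex I only Ndufs7, which passes electrons to ubiquinone, was called (-1.56), and none of the 8 assembly factors or of the 4 complex II subunits was. The median log2 fold change was -0.35 for the assembly factors and -0.29 for complex II. Sdha, the flavoprotein of complex II, had 80.9 and 76.5 CPM in hemisection neurons and 101 CPM in uninjured control neurons.

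The steepest called falls among nuclear members with at least 20 CPM were those of Atp5o, Ndufa4, Atp5e, Ndufa13, Atp5k and Cox4i1. Atp5o had 55.1 and 27.7 CPM after hemisection and 263 CPM in the uninjured control (log2 fold change -2.44, SE 0.35, adjusted p = 0.000663, edgeR). By its place in the gene list this is likely the 242585-base gene of that name, so the fall is not assigned to the complex V subunit. Ndufa4, a subunit of complex IV, had 34.5 and 27.7 CPM after hemisection and 147 CPM in the uninjured control (log2 fold change -2.09, adjusted p = 0.000924, edgeR). In each case the hemisection libraries stood together well under the control. Atp5e, the epsilon subunit of complex V, had 10.4 and 8.60 CPM after hemisection against 44.5 CPM in the uninjured control (-2.06). Atp5k had 16.3 and 16.2 CPM after hemisection against 66.5 CPM in the uninjured control (-1.93). Ndufa13, an accessory subunit of complex I, had 13.8 and 16.2 CPM after hemisection against 60.4 CPM in the uninjured control (-1.96). Cox4i1, the common form of complex IV subunit 4, had 17.9 and 22.0 CPM after hemisection against 77.7 CPM in the uninjured control (-1.92). None of these 6 genes had a hemisection library that reached the control, and the same held for 81 of the 88 tested nuclear members, against 46% of all genes tested.

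**Figure D2:**
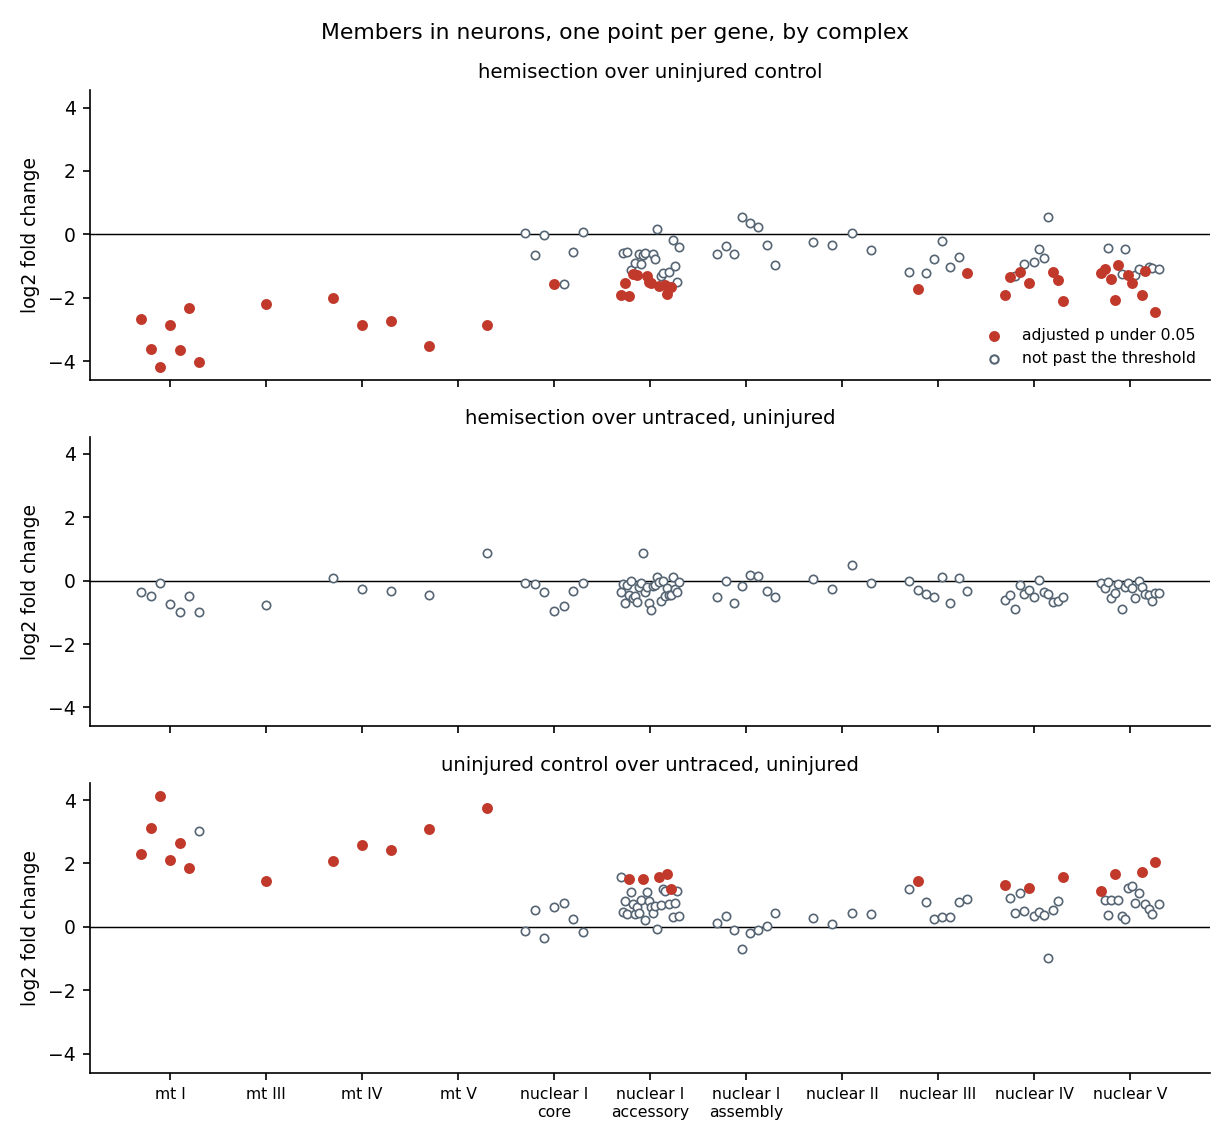
Log2 fold change of each respiratory chain gene in neurons, grouped by complex and by genome (mt or nuclear), for hemisection over uninjured control (top), hemisection over untraced uninjured (middle) and uninjured control over untraced uninjured (bottom); filled points passed the adjusted p threshold of 0.05. All 13 mt-encoded and 32 nuclear genes are filled below 0 in the top panel, none is filled in the middle panel, and 12 mt-encoded and 13 nuclear genes are filled above 0 in the bottom panel.

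Set against the untraced uninjured libraries of the other experiment, hemisection neurons showed smaller median fold changes. They were negative for 11 of 13 mt-encoded and 78 of 88 nuclear members, against 6125 of all 11601 genes. No mt-encoded and no nuclear member was called by edgeR or by DESeq2, and of all genes tested 0.138% were called higher and 0.0517% lower. An unadjusted p under 0.05 (edgeR) was found for 3 of 13 mt-encoded members, 8 of 88 nuclear members and 448 of all 11601 genes. The median log2 fold change was -0.44 for mt-encoded and -0.32 for nuclear members, and it turned to 0.02 and 0.17 without untraced replicate 1. Levels of mt-Cytb were 77.0 and 80.3 CPM in hemisection neurons and 145 and 122 CPM in untraced neurons (log2 fold change -0.76, adjusted p = 0.242, edgeR). Both hemisection libraries lay below both untraced ones for mt-Cytb. Cox5b, a complex IV subunit, had 17.8 and 12.4 CPM after hemisection and 40.8 and 13.4 CPM in untraced neurons (log2 fold change -0.89, adjusted p = 1, edgeR). Atp5g1, 1 of the c-ring subunits of complex V, had 20.5 and 18.2 CPM after hemisection and 47.9 and 20.1 CPM in untraced neurons (-0.89). The complex IV subunit Cox7c had 61.5 and 44.9 CPM after hemisection and 122 and 47.0 CPM in untraced neurons (-0.68). For these 3 genes untraced replicate 1 stood high, and replicate 2 lay near or inside the hemisection values. Without untraced replicate 2, mt-Nd4 (-0.97), Cox5b (-1.27), Atp5g1 (-1.22) and Cox7c (-1.08) were called lower.

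The uninjured control was also compared with the untraced uninjured libraries, both from mice without injury. Of the mt-encoded members 12 of 13 were higher in the uninjured control, against 2.07% of all genes, from 1.43 for mt-Cytb to 4.12 for mt-Nd3 on the log2 scale. The exception mt-Nd6 had 11.2 CPM in the uninjured control and 1.71 and 0 CPM in untraced neurons (log2 fold change 3.03, adjusted p = 0.0718, edgeR). Of the nuclear members 13 were higher and none lower, namely 5 accessory subunits of complex I, 1 subunit of complex III, 2 of complex IV with Ndufa4, and 4 members counted with complex V by symbol, Atp5o among them. The nuclear count was 32 without untraced replicate 1 and 1 with DESeq2. Atp5o had 263 CPM in the uninjured control and 80.9 and 28.0 CPM in untraced neurons (log2 fold change 2.05, adjusted p = 0.00555, edgeR). The control lay above both untraced libraries for Atp5o, as it did for Atp5k (1.73), Atp5e (1.68), Ndufa4 (1.57), Ndufb5 (1.56) and Ndufa13 (1.51). The fold changes of this comparison and of hemisection over uninjured control share the same control library.

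Within neuronal subtypes, as deposited, single libraries were set side by side. In the 15 subtypes with at least 20 nuclei in both, hemisection replicate 1 had less mt-encoded RNA than the uninjured control in 15, with a median ratio of 0.109, and less nuclear-member RNA in 15, with a median ratio of 0.500. In the 7 subtypes shared with untraced replicate 1, hemisection replicate 1 had less mt-encoded RNA in 6 (median ratio 0.730) and less nuclear-member RNA in 7 (median ratio 0.815). The uninjured libraries differed as well: untraced replicate 1 had less mt-encoded RNA than the uninjured control in 7 of 7 subtypes (median ratio 0.244). It also had less nuclear-member RNA in 7 of 7 (median ratio 0.610). These are ratios between single libraries and carry no test.

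Several other measures moved with the uninjured control library. The 84 cytoplasmic ribosomal protein genes, whose mature transcripts also lie outside the nucleus, summed to 2274 and 2398 CPM in hemisection neurons and 4355 CPM in uninjured control neurons, against 2503 and 1378 CPM in untraced neurons. The 10 oligodendrocyte markers summed to 85.0 and 188 CPM in hemisection neurons and 798 CPM in uninjured control neurons, against 249 and 267 CPM in untraced neurons. The 6 astrocyte markers summed to 188 CPM in the uninjured control against 73.7 to 119 CPM elsewhere. Gene length moved with the result too: nuclear members had a median span of 7.76 kb, against 32.6 kb for the other genes tested. In the shortest of 4 equal length classes, genes up to 14.2 kb, 29 of 65 members (44.6%) and 227 of 2814 other genes (8.07%) were lower after hemisection, with median log2 fold changes of -1.21 and -0.30. In the longest class 1.46% of other genes were lower, with a median log2 fold change of 0.20. The part of carried-over RNA, of gene length and of library preparation in the lower levels after hemisection was not tested.

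Lists of genes around the respiratory chain were read in the same comparison, hemisection over uninjured control. None was called by edgeR among 15 tested electron carriers and other chain subunits, 38 other assembly factors, 17 genes of mitochondrial DNA upkeep and transcription, 10 regulators of mitochondrial biogenesis and 16 genes of the citric acid cycle. The median log2 fold changes of these lists were -0.45, -0.20, 0.11, 0.09 and -0.12 in that order, against 0.03 over all genes. Cyc1, the cytochrome c1 of complex III, had 14.5 and 14.3 CPM after hemisection and 35.5 CPM in the uninjured control (log2 fold change -1.20, adjusted p = 0.126, edgeR). Nrf1, a regulator of nuclear respiratory genes, had 113 and 117 CPM after hemisection and 94.99 CPM in the uninjured control (0.38, adjusted p = 0.390, edgeR). Of 16 glycolytic genes 3 were lower, Aldoc (-2.52), Aldoa (-1.52) and Pkm (-1.06), with a list median of -0.77, against 4.61% of all genes called lower. Aldoc, an aldolase known as an astrocyte marker and 1 of the 6 counted above, was the glycolytic gene that also differed between the uninjured control and untraced libraries (1.53).

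Traced neurons, those that project to the lumbar cord, were compared with untraced neurons of the same numbered replicates. Of the mt-encoded members 3 of 13 were higher in traced neurons, while of all genes tested 0.112% were called higher and 0.25% lower. mt-Nd3 had 33.8 and 33.0 CPM in traced neurons and 7.98 and 4.48 CPM in untraced neurons (log2 fold change 2.22, SE 0.35, adjusted p = 0.00967, edgeR). mt-Atp6 had 180 and 273 CPM in traced neurons and 98.9 and 77.2 CPM in untraced neurons (1.22, adjusted p = 0.0278, edgeR). mt-Co3, a core subunit of complex IV, had 282 and 369 CPM in traced neurons and 170 and 109 CPM in untraced neurons (1.11, adjusted p = 0.0462, edgeR). Both traced libraries lay above both untraced ones for these 3 genes, as for 9 of the 13 mt-encoded members in all, against 20.4% of all genes tested. With the replicate number as a block, 5 mt-encoded members were called, mt-Nd2 (1.05, adjusted p = 0.0332, edgeR) and mt-Co2 (0.84, adjusted p = 0.0316, edgeR) besides these, and 141 genes in all against 42 without the block. The mt-Co3 call was lost with RLE size factors, with only the groups compared and without untraced replicate 2. Without traced replicate 1 the call was mt-Atp6 alone, without traced replicate 2 mt-Nd3 alone, and no mt-encoded member was called among dorsal excitatory neurons, the name family tested by itself. No nuclear member was called by edgeR, and their median log2 fold change was 0.09. An unadjusted p under 0.05 (edgeR) was found for 3 of 88 nuclear members, against 930 of all 11601 genes. Atp5o had 117 and 114 CPM in traced neurons and 80.9 and 28.0 CPM in untraced neurons (0.91, adjusted p = 0.431, edgeR), without overlap between the groups. Ndufb2, an accessory subunit of complex I, had 45.5 and 42.0 CPM in traced neurons against 29.6 and 20.1 CPM in untraced neurons (0.72). Sdhc, a membrane anchor of complex II, had 33.1 and 51.0 CPM in traced neurons against 26.2 and 12.3 CPM in untraced neurons (0.81).

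Regenerating traced neurons gave too few UMIs for most members to be judged. In that library 4 mt-encoded and 24 nuclear members detected in other neurons had 0 UMIs, which allows a level of up to 22.2 CPM (3 counts of 135012). The share of all genes at 0 UMIs, or at 0 and above that limit in both traced libraries, was not counted. Numbers of members at 0 therefore do not set them apart from other genes. Of the members at 0, 8 stood above that limit in both traced libraries. Among them Ndufs3, a core subunit of complex I, had 38.6 and 33.0 CPM in traced uninjured neurons, the iron-sulfur subunit Sdhb of complex II 45.5 and 33.0 CPM, and Cox6b1 of complex IV 49.6 and 36.0 CPM. No member was called between regenerating and traced uninjured neurons by edgeR or by DESeq2, and of all genes tested 0.215% were called higher and 0.0603% lower. The median log2 fold change was -1.52 for mt-encoded members, -1.05 for nuclear members and -0.28 over all genes. mt-Nd5 had 0 CPM in regenerating neurons and 24.8 and 17.99 CPM in traced uninjured neurons, a difference not detectable at this depth. The better covered members lay at 119 CPM in regenerating neurons against 236 and 222 CPM in traced uninjured neurons for mt-Co1, and at 126 CPM in regenerating neurons against 282 and 369 CPM in traced uninjured neurons for mt-Co3. For mt-Cytb the regenerating library had 126 CPM, and the traced uninjured libraries 168 and 204 CPM. Etfa, which feeds electrons from fatty acid oxidation to the chain and is no member, had 0 CPM in regenerating neurons and 78.5 and 93.0 CPM in traced uninjured neurons, at least 3.86-fold lower against the limit of 3 counts (adjusted p = 0.0370, edgeR). The regenerating group is 1 library, whose spread was taken from the replicated groups.

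The make-up of the mt-encoded UMIs was read beside their total. Of all sums of a library and a cell class, 17 held at least 500 mt-encoded UMIs, 6 from the uninjured control and 11 from other libraries. mt-Atp6 made up 17.5 to 18.9% of mt-encoded UMIs in the uninjured control and 9.55 to 15.99% in the other libraries. mt-Nd2, a core subunit of complex I, made up 7.82 to 9.17% in the uninjured control and 3.50 to 7.03% elsewhere, and mt-Nd3 2.54 to 3.08% in the uninjured control and 0.677 to 2.46% elsewhere. mt-Cytb made up 6.99 to 9.95% in the uninjured control and 11.3 to 18.4% elsewhere. For these 4 genes the uninjured control sums did not overlap the others, above them for 3 and below for mt-Cytb, while for the other 9 mt-encoded genes they overlapped. Within hemisection, mt-Co1 made up 19.996 to 26.8%, against 13.1 to 15.6% in the uninjured control and 16.3 to 21.1% in untraced libraries. The hemisection sums for mt-Co1 lay above all control sums and overlapped the untraced ones. Sums from 1 library share its preparation, and no test was made on these shares.

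**Figure D3:**
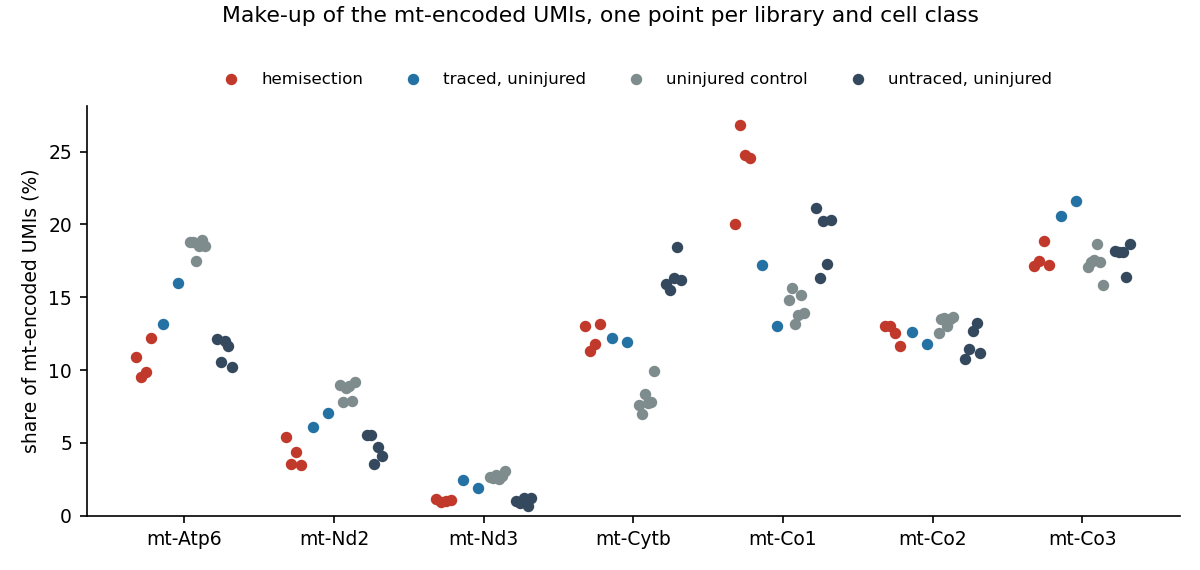
Share of mt-encoded UMIs taken by 7 mt-encoded genes, in percent, with 1 point per library and cell class that held at least 500 mt-encoded UMIs, coloured by group. The uninjured control points lie above all others for mt-Atp6, mt-Nd2 and mt-Nd3 and below all others for mt-Cytb.

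Outside neurons the uninjured control was also highest in each class that other libraries held. The mt-encoded share of UMIs in microglia, the immune cells of the cord, was 0.156% and 0.208% in the hemisection libraries, 0.958% in the uninjured control, and 0.0549% and 0.118% in the untraced libraries. In oligodendrocytes, which make myelin, it was 0.191% and 0.167% in the hemisection libraries, 0.643% in the uninjured control, and 0.0817% and 0.119% in the untraced libraries. In these 2 classes the hemisection libraries lay above the untraced ones, while in neurons the 2 groups overlapped. Astrocytes of the uninjured control had 0.565%, oligodendrocyte precursors 0.571% and vascular cells 2.43%.

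**Figure D4:**
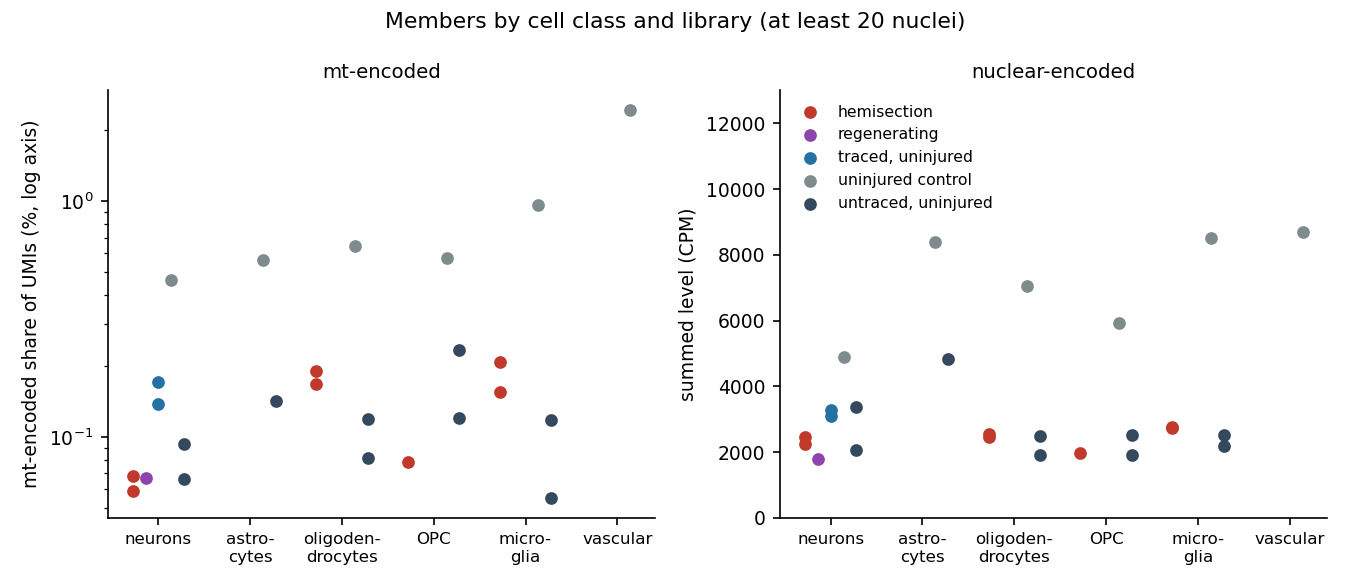
Share of UMIs from mt-encoded genes (left, percent on a log axis) and summed level of the nuclear members (right, CPM) by cell class, with 1 point per library that held at least 20 nuclei of the class. The uninjured control is the highest point in each of the 5 classes with other libraries, and its vascular cells, at 2.43%, have none beside them.

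In microglia all 12 tested mt-encoded members and 55 of 81 nuclear members fell in the hemisection libraries relative to the uninjured control (edgeR), against 13% of all genes called lower, with median log2 fold changes of -2.49 and -1.77. Among called nuclear members with a mean of at least 20 CPM, Atp5g1 fell most, with 12.1 and 8.80 CPM in hemisection microglia and 117 CPM in uninjured control microglia (log2 fold change -3.63). It was followed by Atp5k (-3.15), the complex I subunit Ndufb5 (-3.13), the complex IV subunit Cox6c (-3.05), Ndufa4 (-3.02) and the c-ring gene Atp5g3 (-2.87). In oligodendrocytes 13 of 13 mt-encoded and 47 of 87 nuclear members were lower, against 4.77% of all genes, with medians of -2.01 and -1.48. Atp5o (-2.97), Atp5k (-2.74), Atp5md (-2.61), Ndufa4 (-2.45), Cox5a and Atp5o.1 (-2.37 each) fell most among those with a mean of at least 20 CPM. Hemisection replicate 1 holds only 32 microglia and 62 oligodendrocytes, and without hemisection replicate 2 the nuclear calls dropped to 12 in microglia and 6 in oligodendrocytes, and the mt-encoded calls to 6 in oligodendrocytes.

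Against the untraced libraries the order in these 2 classes turned for a few mt-encoded members. In microglia mt-Co1 had 483 and 558 CPM after hemisection and 135 and 242 CPM in untraced libraries (log2 fold change 1.43, adjusted p = 0.000450, edgeR). mt-Co2 (1.37) and mt-Atp6 (1.14) were the other 2 of 12 called higher, against 4.45% of all genes, and no nuclear member was called. Of the 81 nuclear members 8 had an unadjusted p under 0.05 (edgeR), against 1384 of all 8283 genes. The mt-encoded count was 0 without hemisection replicate 2, 1 without untraced replicate 1 and 7 without untraced replicate 2. In oligodendrocytes mt-Atp8 (3.14) and mt-Atp6 (0.89) were higher after hemisection than in untraced libraries, against 2.08% of all genes, and no nuclear member was called. The mt-Atp8 value rests on few molecules, 2 and 14 UMIs in the hemisection libraries and 3 and 2 UMIs in the untraced ones. Of the 87 nuclear members 5 had an unadjusted p under 0.05 (edgeR), against 1334 of all 11924 genes. There the mt-encoded count was 0 without either hemisection library or untraced replicate 1, and 7 without untraced replicate 2. The hemisection and untraced libraries come from different experiments, and the part of that was not tested. The uninjured control exceeded the untraced libraries for 12 mt-encoded and 52 nuclear members in microglia (9.98% of all genes) and for 13 and 56 in oligodendrocytes (7.34% of all genes). The microglial nuclear count was 33 without untraced replicate 2.

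Whether the effect of hemisection over uninjured control differed between classes was tested directly, as the effect in glia minus that in neurons. The differences come from a joint fit over neurons and glia of the hemisection and uninjured control libraries. The log2 fold changes given by class come from a separate fit per class that also holds other libraries. Their gap therefore need not equal the tested difference. For the mt-encoded members no difference was called in microglia or oligodendrocytes by edgeR. At an unadjusted p under 0.05 (edgeR) were 0 and 4 of the 13, against 2641 and 1571 of all 13061 genes. In microglia 1 nuclear member was called with a positive difference, against 2.82% of all genes, and 1 with a negative difference, against 7.97%. The positive one was Atp5o, whose log2 fold change was -1.38 in microglia and -2.44 in neurons (difference 1.82, adjusted p = 0.0437, edgeR). Atp5o.1, the other gene of that name and locus, had a difference of -1.58 (unadjusted p = 0.0439, adjusted p = 0.227, edgeR), and how reads were split between them was not tested. The negative one was Atp5mpl, a small subunit of complex V, with -2.60 in microglia and -1.06 in neurons (difference -1.86, adjusted p = 0.0491, edgeR). In oligodendrocytes no nuclear member was called, against 1.52% of all genes with a positive and 2.76% with a negative difference. At an unadjusted p under 0.05 (edgeR) were 2 of the 88 nuclear members, against 1571 of all 13061 genes.

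Neurons were set against the mean of the other classes, which includes the single vascular sum of the uninjured control. Of the 13 mt-encoded members, 9 were lower in neurons than in the mean of the other classes (edgeR with the library as a block), from -0.90 for mt-Nd2 to -1.14 for mt-Co1 on the log2 scale, against 19.2% of all genes called lower. Neurons were not below each class in each library: in untraced replicate 1 the mt-encoded members summed to 936 CPM in neurons, 549 CPM in microglia and 817 CPM in oligodendrocytes. Of the nuclear members 5 were higher in neurons, against 25.3% of all genes, and 8 were lower. The 5 were Cox7b2 (1.54), the complex I assembly factor Ndufaf5 (1.46), Atp5o (1.33), Ndufa10 (0.52) and the assembly factor Ndufaf2 (0.50). Cox7b2 was not highest in neurons, since untraced replicate 1 held 8.27 CPM in neurons, 14.7 CPM in astrocytes and 18.5 CPM in oligodendrocyte precursors. Those lower in neurons included Cox6b2 (-2.00), Atp5e (-1.005), the accessory subunit Ndufb9 (-0.95) and the c-ring gene Atp5g2 (-0.88). Among the classes of the uninjured control Atp5o stood at 263 CPM in neurons, 413 CPM in astrocytes and 43.6 to 120 CPM in the other 4, whereas Atp5o.1 ran from 33.0 CPM in neurons to 78.8 CPM in vascular cells. Neurons thus had the second highest level of Atp5o, likely the longer gene of that name, and the lowest of Atp5o.1, likely the shorter.

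Vascular cells were set against the mean of the other classes in a fit over 5 libraries, with the library as a block. Only the uninjured control held at least 20 vascular nuclei. The vascular arm is 1 sum with no replicate, and its spread was taken from the other classes and libraries. Of the mt-encoded members 12 of 13 were higher in vascular cells, from 1.33 for mt-Atp8 to 2.13 for mt-Cytb on the log2 scale, while mt-Nd1 was not called (1.55, adjusted p = 0.0647, edgeR), and 9.59% of all genes were called higher. Of the nuclear members 2 were higher, and both are alternative forms of common subunits. Ndufa4l2, a relative of Ndufa4 known to be induced by low oxygen and to mark pericytes, had 59.4 CPM in vascular cells (49 UMIs) and 0 to 0.981 CPM in the other classes of the uninjured control (log2 fold change 6.96, adjusted p = 9.54e-05, edgeR). Cox4i2, the oxygen-responsive form of complex IV subunit 4, had 19.4 CPM in vascular cells (16 UMIs) and 0 to 4.91 CPM in the other classes (4.55, adjusted p = 0.000775, edgeR). The exact 95% Poisson intervals of the vascular values, which cover counting error only, were 44.0 to 78.5 CPM for Ndufa4l2 and 11.1 to 31.5 CPM for Cox4i2. In microglia the interval of Cox4i2 reached 11.4 CPM, into that of vascular cells. The common forms did not follow, with Ndufa4 at 207 CPM in vascular cells and 147 to 260 CPM in the other classes, and Cox4i1 at 137 CPM in vascular cells and 77.7 to 171 CPM in the other classes.

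Other alternative forms were sparse. Cox7b2, best known from testis, had 18.7 CPM in astrocytes of the uninjured control and 3.95 CPM in its neurons, with 45 and 82 UMIs. Cox6b2, the testis form of Cox6b1, had 20.6 CPM in vascular cells and 1.69 CPM in neurons, with 17 and 35 UMIs. Its vascular level was not called (1.89, adjusted p = 0.131, edgeR). Cox6a2, the heart and muscle form of Cox6a1, had 17 UMIs in microglia over all libraries, 1 of them in the uninjured control, and 0 in all neurons. In microglia it had 24.2 and 8.80 CPM in the hemisection libraries (2 and 11 UMIs), 0.981 CPM in the uninjured control, and 3.00 and 5.83 CPM in the untraced libraries. The muscle forms Cox7a1 and Cox8b stayed at or below 9.70 and 0.981 CPM in all classes of the uninjured control.

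**Figure D5:**
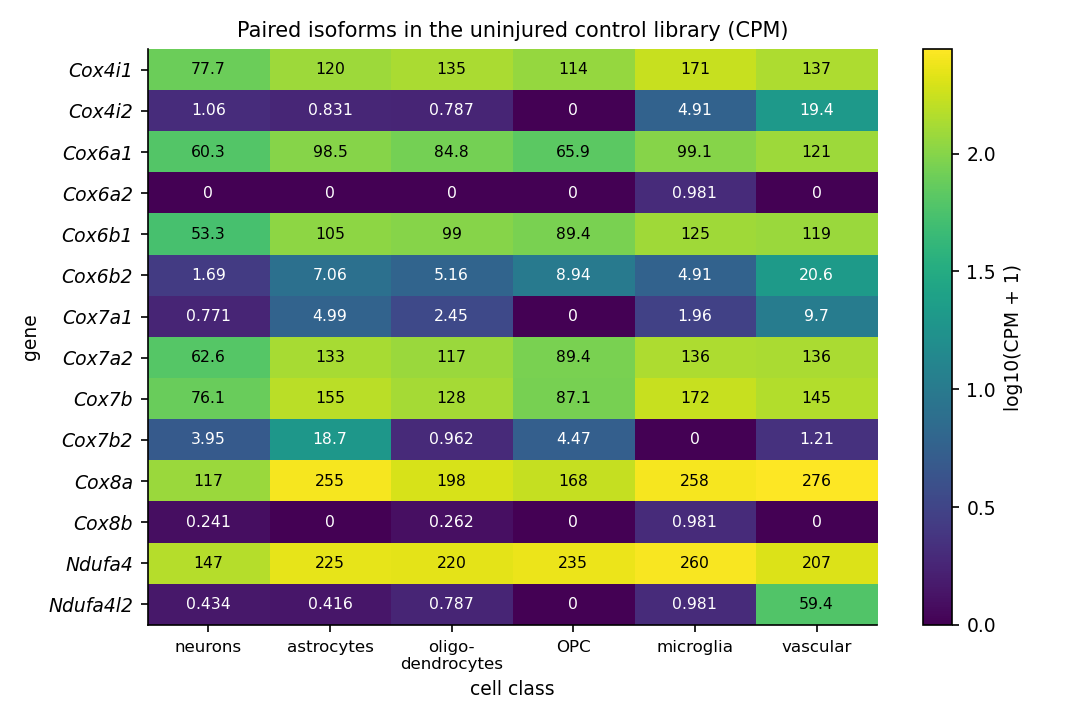
Level in CPM of common and alternative forms of complex IV subunits and Ndufa4 in the 6 cell classes of the uninjured control library, coloured by log10 of CPM plus 1. Ndufa4l2 at 59.4 CPM and Cox4i2 at 19.4 CPM stand out in vascular cells, while the common forms are at 53.3 CPM or more in every class.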

How the data were processed

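The authors deposited 1 matrix of UMI counts, without normalization, for 19787 genes and 12447 nuclei, with an annotation that gives each nucleus its library, class and neuronal subtype. The submitters' processing notes name mm10, GRCm38, Cell Ranger 4.0.0 and Seurat 3. Whether introns were counted, and how nuclei were filtered, is not stated there, and no further filter or doublet caller was applied.

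Counts were summed per library over neurons, or over other classes with at least 20 nuclei, and tested with edgeR 4.0.16 in R 4.3.3 (quasi-likelihood, TMM, filterByExpr, 1 fit over the 5 groups, Benjamini-Hochberg adjustment over all genes tested, threshold 0.05). Sums and levels were made with python 3.11.15. On simulated neuronal sums, 96.5% of 200 changed genes were recovered for hemisection over control, with 7 false calls among 11255 genes. The changed genes were above 20 CPM, and all genes had the same simulated spread. Each change was larger than the median change of the nuclear members, so recovery of smaller changes or sparser genes was not tested. Alternatives were DESeq2 1.42.0, RLE size factors, no filter on low counts, only the groups compared, dorsal excitatory neurons, totals without mt-encoded transcripts, a minimum of 50 nuclei, single libraries left out, and a replicate block. The block takes traced and untraced libraries of 1 replicate number as pairs, since the titles name them as fractions of 1 replicate; replicate differences correlated at r = 0.195 over 7034 genes.

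Members and lists were chosen with earlier results of these data known. Named were all mt-encoded members and, of nuclear members called with a mean of at least 20 CPM, the 6 largest changes in each direction, or the 3 with smallest p where fewer than 3 were called; examples in complex II and the class levels were chosen after their values were seen. Intervals and limits at 0 counts (3 counts) cover counting error only.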

Additional observations from a re-analysis of the deposited data

Results flagged for a closer look

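The effect of hemisection over uninjured control differed between microglia and neurons for 2 nuclear members, by the test of the difference itself. That is 1 of 88 tested in each direction, against 2.82% of all genes with a positive and 7.97% with a negative difference, and with no filter on low counts 1 call was left. Atp5mpl had a difference of -1.86 in the joint fit over both classes (SE 0.67, adjusted p = 0.0491, edgeR). Its level was 0 and 23.2 CPM in hemisection microglia against 126 CPM in uninjured control microglia. In neurons it was 14.5 and 22.9 CPM after hemisection against 38.3 CPM in the uninjured control. Atp5o had a difference of 1.82 (SE 0.64, adjusted p = 0.0437, edgeR), with 12.1 and 23.2 CPM in hemisection microglia against 56.9 CPM in the uninjured control, and 55.1 and 27.7 CPM in hemisection neurons against 263 CPM in uninjured control neurons. Atp5o.1, at the same locus, had a difference of -1.58 (adjusted p = 0.227, edgeR), so the sign for Atp5o is uncertain where reads could be split. The uninjured control is 1 library in both, and hemisection replicate 1 held 32 microglia.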

How the results depend on the processing

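Hemisection over uninjured control in neurons kept 11 to 13 mt-encoded calls under all settings tried, 11 with DESeq2 and 11 without hemisection replicate 1, where mt-Atp8 and mt-Nd6 were lost, and 12 in dorsal excitatory neurons. The nuclear count of 32 was 49 with no filter on low counts, 2 with DESeq2, 61 with only the groups compared, and 4 to 12 when leaving out 1 library. The cause was not tested.

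Uninjured control over untraced gave 24 nuclear calls with no filter, 1 with DESeq2, 6 in dorsal excitatory neurons and 10 to 32 when leaving out 1 library. Traced over untraced gave 5 mt-encoded calls and 1 nuclear call with no filter, 0 mt-encoded calls in dorsal excitatory neurons, and 1 to 4 mt-encoded and 0 to 1 nuclear calls when leaving out 1 library. With the replicate block, which pairs libraries of 1 replicate number, it gave 5 mt-encoded calls; the block changed no nuclear call. Regenerating over traced gave 1 mt-encoded and 2 nuclear calls with no filter. Hemisection over untraced gave 0 to 1 mt-encoded and 0 to 3 nuclear calls when leaving out 1 library.

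Leaving out 1 library gave 12 to 50 nuclear calls in microglia for hemisection over uninjured control, 0 to 7 mt-encoded and 0 to 1 nuclear calls against untraced, and 33 to 46 nuclear calls for the uninjured control over untraced. In oligodendrocytes it gave 6 to 13 mt-encoded and 6 to 39 nuclear calls for hemisection over uninjured control, and 0 to 7 and 0 to 1 against untraced, where no filter gave 4 mt-encoded calls. The difference of effects between microglia and neurons gave 13 nuclear calls with RLE size factors and 1 with no filter, and that between oligodendrocytes and neurons 2 mt-encoded and 1 nuclear call with RLE.

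Log2 fold changes that changed sign were all of uncalled genes. In hemisection over untraced, dorsal excitatory neurons gave 0.090 for mt-Nd2, 0.069 for mt-Co2 and 0.94 for mt-Nd3. Leaving out 1 library gave -1.27 to 0.24 for Cox5b, -1.08 to 0.21 for Cox7c, -0.61 to 0.10 for mt-Nd1, -0.20 to 0.38 for mt-Co1, -0.54 to 0.018 for mt-Co3, -0.22 to 0.52 for mt-Nd3, -0.72 to 0.18 for mt-Nd5 and -5.45 to 4.64 for mt-Nd6. In traced over untraced, mt-Nd4l gave 0.094 with DESeq2, 0.013 with only the groups compared, 0.21 in dorsal excitatory neurons and -0.30 to 0.83 when leaving out 1 library, mt-Nd5 -0.29 to 0.81, and mt-Atp8 0.67 in dorsal excitatory neurons.

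Of the uninjured control, all neurons have a barcode sequence in their names, so the alternative with these nuclei equals the values reported and the one without them could not be run. A fit without the regenerating library and the class comparisons with untraced libraries were chosen after seeing the data; the first gave 13 mt-encoded and 32 nuclear calls for hemisection over uninjured control. Depth limits the regenerating library and low-count genes such as mt-Nd6 and mt-Atp8.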
